A study of Mus musculus with 4 samples.

Results

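The 9 genes described here are those of the melanocyte and its growth factor in the mouse digit. They are Tyr, Tyrp1, Dct, Pmel and Mlana, whose proteins make or build the melanosome, Mitf, the transcription factor of the lineage, the receptors Kit and Mc1r, and Kitl, which encodes the ligand of Kit. They were chosen by symbol from the 33696 genes of the count tables, and all 9 were found once in each library. Their UMIs (unique molecular identifiers, each of which marks 1 captured transcript) were read across cell classes that were formed and named without any of them.

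The study amputated the tip of the terminal phalanx (P3) of hind limb digits and asked how lymphatic vessels bear on bone regeneration. Digit tissue was profiled by droplet scRNA-Seq with 10x Genomics 3' chemistry in 4 libraries, 1 per condition, each from the digits of 10 pooled female C57BL/6 mice aged 6 to 8 weeks. In the diet pair, chow held SAR131675 (30 mg/kg), which inhibits the lymphatic growth factor receptor VEGFR3, for 1 library and no drug for the other (Control diet), and the labels give a diet of 8 days. In the surgical pair, 1 library came from digits after removal of the draining lymph nodes (LNR) and 1 from the sham limb (Sham), which the labels call untreated. Per the study the sham limb was the contralateral limb, but the animals were pooled, so that limbs of 1 animal cannot be matched. Since each library is also its own batch in the labels, condition and batch cannot be told apart, and no p-value was computed because the cells of 1 library are not replicates.

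Melanocytes make melanin in an organelle, the melanosome, and hand it to keratinocytes of the epidermis and hair. Mitf drives the pigment genes, Mc1r receives the melanocortin signal that favors dark pigment, and Kit signaling is needed for melanocytes to survive and migrate. Kit is also the growth factor receptor of mast cells, and the ligand is made by stromal, endothelial and epithelial cells in skin.

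Mitf protein binds short DNA letters in the promoters of pigment genes, so those promoters are shown first, from RefSeq sequence on GRCm38.p6. The files were made on GRCm39, and the sequences serve only to show the genes. The letters TCATGTG were searched on both strands in the 250 bases before each start site, and they contain CATGTG, which was searched as well. The match is in capitals and all sequences read 5′ to 3′ on the strand of the gene.

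Tyr, chr7:87493513-87493632, minus strand: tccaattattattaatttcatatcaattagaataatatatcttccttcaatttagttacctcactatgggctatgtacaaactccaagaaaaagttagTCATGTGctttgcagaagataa
Tyrp1, chr4:80834093-80834212, plus strand: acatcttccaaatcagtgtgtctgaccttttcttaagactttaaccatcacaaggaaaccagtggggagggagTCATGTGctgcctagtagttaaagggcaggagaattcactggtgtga
Dct, chr14:118052247-118052496, minus strand: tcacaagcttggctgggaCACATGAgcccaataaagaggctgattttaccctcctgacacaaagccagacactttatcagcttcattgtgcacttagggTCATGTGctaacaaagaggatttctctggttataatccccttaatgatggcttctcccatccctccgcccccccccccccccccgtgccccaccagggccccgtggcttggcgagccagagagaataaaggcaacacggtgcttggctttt
Mc1r, chr8:123406962-123407081, plus strand: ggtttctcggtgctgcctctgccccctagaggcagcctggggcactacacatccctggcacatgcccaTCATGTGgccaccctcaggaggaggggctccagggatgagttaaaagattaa

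The match began 22 bases before the start site in Tyr, 47 in Tyrp1 and 52 in Mc1r. Dct held 2 matches, at 151 bases and, on the other strand, at 232 bases. CATGTG was found within each of these matches and once more in Mc1r, on the other strand at 62 bases, which is not in capitals. Neither was found in this window at the 3 listed start sites of Mitf, the 2 of Kit and the 1 of Kitl, and no sequence of Pmel or Mlana was used here. They occur in 1068 of 32851 mouse promoters of the same length (3.25%), and the shorter CATGTG in 4025 (12.3%). CACGTG, the palindromic form, was in none of the 7 genes with a sequence and in 6.02% of all promoters. A match of letters is a description and says nothing of binding in these cells.

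Limits on cells of at least 200 genes, at most 5500 genes, at most 30000 UMIs and at most 10% mitochondrial UMIs kept 19827 to 29076 cells per library and 93602 in all. The kept cells held 142866794 to 339642813 UMIs per library, with a median of 10712 to 11316 UMIs per cell in the diet pair and 5725 to 5851 in the surgical pair. The upper limit on genes removed 12.9% to 15.1% of barcodes in the diet pair against 1.24% to 1.36% in the surgical pair. Both pairs also differ in the software version that counted the reads, so levels are compared within a pair and set side by side between pairs. Within a pair, 348 barcodes were shared in the diet pair and 130 in the surgical pair, and none of them was a pigment cell as defined next. Levels are CPM, the usual unit scaled for depth, taken over the summed UMIs of a class, and they rank cells for 1 gene and not genes against each other. Intervals are 95%, cover counting error only and treat UMIs as independent. The names of cell classes come from clusters and stand for cells like the named type.

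Melanocyte-like cells were rare. They were the cells with a UMI of at least 3 of 8 other melanocyte genes (Slc45a2, Oca2, Gpr143, Trpm1, Slc24a5, Kcnj13, Tspan10 and Syt4), and there were 35 of them. SAR131675 held 4 (0.0138%, 95% Clopper-Pearson interval 0.00375% to 0.0352%), Control diet 11 (0.0458%, 0.0229% to 0.0819%), LNR 9 (0.0454%, 0.0208% to 0.0862%) and Sham 11 (0.0532%, 0.0266% to 0.0952%). By this rule the 3 latter libraries were close and SAR131675 was lowest. Counted instead by at least 3 of Tyr, Tyrp1, Dct, Pmel and Mlana, there were 6 cells in SAR131675, 12 in Control diet, 17 in LNR and 19 in Sham. The 23 cells with UMIs of 2 markers were placed in no class, so their UMIs are outside the pigment cells unless stated. By the marker rule, the log2 ratio of the shares was -1.73 (-3.84 to 0.020) for SAR131675 against Control diet and -0.23 (-1.68 to 1.18) for LNR against Sham, and both intervals included 0. For SAR131675 this depended on the definition. The interval excluded 0 with at least 4 markers (-2.73, -5.95 to -0.54), with called doublets removed (-3.68, -9.11 to -0.90), with the upper limits lifted (-1.12, -2.28 to -0.030) and in the cells of the cluster that held most of them (-2.01, -4.51 to -0.054). It included 0 with at least 2 markers (-1.04, -2.33 to 0.17) and for a cluster formed with the 9 genes and the pathway list (-0.37, -1.49 to 0.74). These intervals cover counting error only. Doublets were called unevenly in the pair, in 4.67% of all SAR131675 cells and 0.907% of all Control diet cells. Of the pigment cells, 3 of 4 in SAR131675 and 0 of 11 in Control diet were called. In 32 of the 35 cells all of Tyr, Tyrp1, Dct, Pmel and Mlana had UMIs, although none of them was used to find the cells. Dct, Pmel and Mlana were found in all 35, Kit in 34, Tyr and Tyrp1 in 33, Mitf in 30, Mc1r in 23 and Kitl in 3. Ptprc, the leukocyte antigen CD45, had 0 UMIs in all 35 cells.

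The pigment cells did not form a cluster of their own when the 9 genes were kept out of the clustering. In the diet pair, 13 of 15 lay in a cluster of 89 cells led by Ccer2, Dct and Cnn1, and in the surgical pair 12 of 20 lay in one of 196 cells led by Fxyd2, Ccer2 and Atp1b1. The remaining cells lay in keratinocyte, fibroblast or hair follicle clusters. Keratinocyte RNA moved with these cells in the surgical pair. Krt14, a basal keratin, was at 24.5 CPM in the pigment cells of SAR131675 and 132 CPM in Control diet, against 2707 CPM in LNR and 4082 CPM in Sham. Across all kept cells Krt14 was at 2919 to 3194 CPM. The 6 basal keratinocyte markers summed to 147 and 439 CPM in SAR131675 and Control diet and to 5307 and 7259 CPM in LNR and Sham. The 5 suprabasal markers differed more within the surgical pair, with 1407 CPM for LNR and 9160 CPM for Sham, against 515 and 388 CPM in SAR131675 and Control diet. Fibroblast markers summed to 5959 CPM in SAR131675 against 58.6 CPM in Control diet, and to 1132 CPM in LNR against 101 CPM in Sham. Mast cell and macrophage markers were at 0 in the pigment cells of all 4 libraries. The doublet caller Scrublet marked 3 of the 4 SAR131675 cells and none of the other 31. The part of mixed droplets in the values that follow was not tested.

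**Figure D1:**
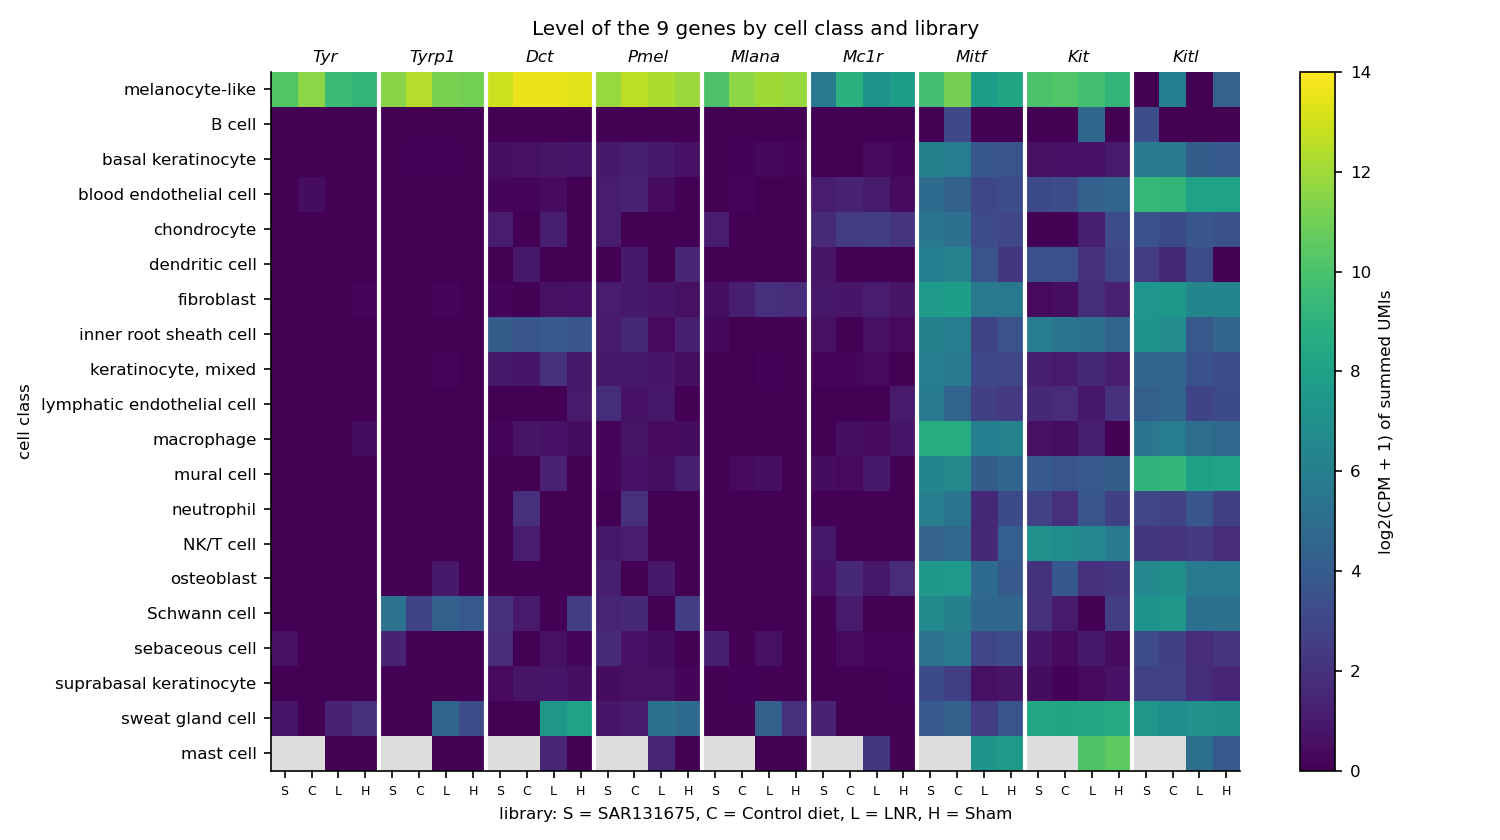
Level of the 9 genes, as log2(CPM + 1) of summed UMIs, in melanocyte-like cells, the 18 classes with at least 30 cells in every library and mast cells, with 1 column per library. Tyr, Tyrp1, Dct, Pmel, Mlana and Mc1r are bright in the top row in all 4 libraries, while Mitf, Kit and Kitl are spread over other rows. Gray marks the mast class of the diet pair, which held no cluster of that name.

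The enzymes of melanin synthesis were present at high levels in the pigment cells of every library. Tyr, the rate-limiting tyrosinase, was at 1202 CPM in SAR131675, 3069 in Control diet, 780 in LNR and 573 in Sham. Tyrp1, which works after Tyr toward eumelanin, was at 2869, 5500, 2309 and 2172 CPM in the same order. Dct, the dopachrome tautomerase, was at 7799, 12495, 12188 and 10135 CPM. For Tyr and Tyrp1 Control diet stood above the other 3 libraries, whereas for Dct 3 libraries lay together and SAR131675 was lowest. Single cells varied widely within a library. Tyr ranged from 1012 CPM through a median of 3526 to 4775 CPM over the 11 Control diet cells, and from 36.6 through 561 to 2227 CPM over the 11 Sham cells. The SAR131675 cells were at 263, 597, 1189 and 2293 CPM of Tyr, overlapping with Control diet.

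Pmel, which forms the fibrils of the melanosome, was at 3703 CPM in SAR131675, 6335 in Control diet, 4970 in LNR and 3801 in Sham. Mlana, a melanosome membrane protein, was at 1079, 3120, 4129 and 3640 CPM. Both were lowest in SAR131675, where 1 cell held 18413 of the 40777 UMIs but 7 of the 151 Pmel UMIs. That cell lay in a fibroblast-like cluster and was called a doublet, and among cells of the cluster with most pigment cells, which leaves it out, the log2 ratio of Pmel against Control diet was -0.049 (-0.32 to 0.21). In those 3 SAR131675 and 10 Control diet cells Mlana stayed lower by more than 2-fold, as given below. Across cells Mlana spanned 527 to 1997 CPM in SAR131675 and 618 to 6544 CPM in Control diet, so that the cells of both libraries overlapped.

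Mitf and both receptors were read in the same cells. Mitf was at 907 CPM in SAR131675 (37 UMIs), 2256 in Control diet (308 UMIs), 229 in LNR (15 UMIs) and 302 in Sham (30 UMIs). Kit was at 1055, 1157, 872 and 573 CPM, the gene of the set that varied least between SAR131675 and Control diet. Mc1r was at 49.1 CPM in SAR131675 (2 UMIs), 483 in Control diet (66 UMIs), 138 in LNR (9 UMIs) and 221 in Sham (22 UMIs). In SAR131675 Mc1r was detected in 2 of 4 pigment cells and in Control diet in 10 of 11, against 4 of 9 in LNR and 7 of 11 in Sham. Kitl had 0 UMIs in the pigment cells of SAR131675 and LNR, which allows up to 73.6 and 45.9 CPM (3 counts), and had 9 UMIs in 2 Control diet cells and 2 UMIs in 1 Sham cell.

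**Figure D2:**
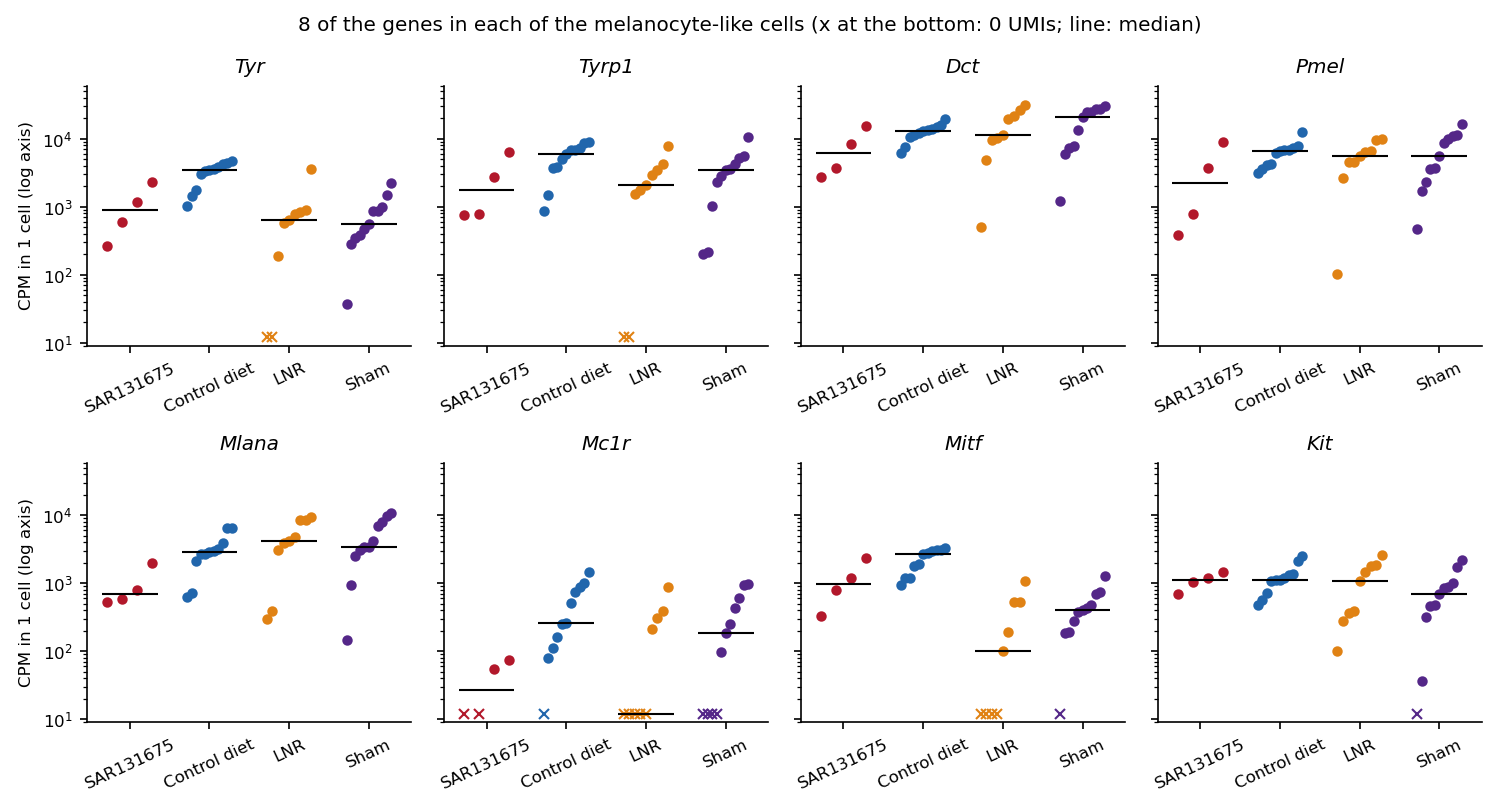
CPM of 8 genes in each of the 35 melanocyte-like cells on a log axis, by library, with the median as a line and cells without a UMI as crosses at the bottom, where a median of 0 is drawn too. The SAR131675 cells sit within or below the range of the Control diet cells, and the LNR and Sham cells overlap for each of the 8 genes.

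These few cells, under 0.1% of the cells of any library, held most UMIs of the 5 melanosome genes, except for Dct and Pmel in SAR131675. Tyr had 89.1% of its UMIs in pigment cells in SAR131675, 98.4% in Control diet, 91.1% in LNR and 78.1% in Sham. For Tyrp1 the shares were 59.1%, 97.2%, 77.4% and 85.7%, and for Dct they were 44.0%, 87.4%, 67.0% and 70.1%. Pmel had 34.1%, 76.7%, 67.0% and 73.3% and Mlana 53.0%, 88.0%, 70.3% and 76.1% there. In each of these genes other than Tyr, the share was lowest in SAR131675, the library with the fewest pigment cells. Mc1r had 2.5%, 50.0%, 11% and 34.4% of its UMIs in pigment cells, Kit 2.20%, 14.9%, 4.18% and 5.58%, and Mitf 0.137% to 1.57%.

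**Figure D3:**
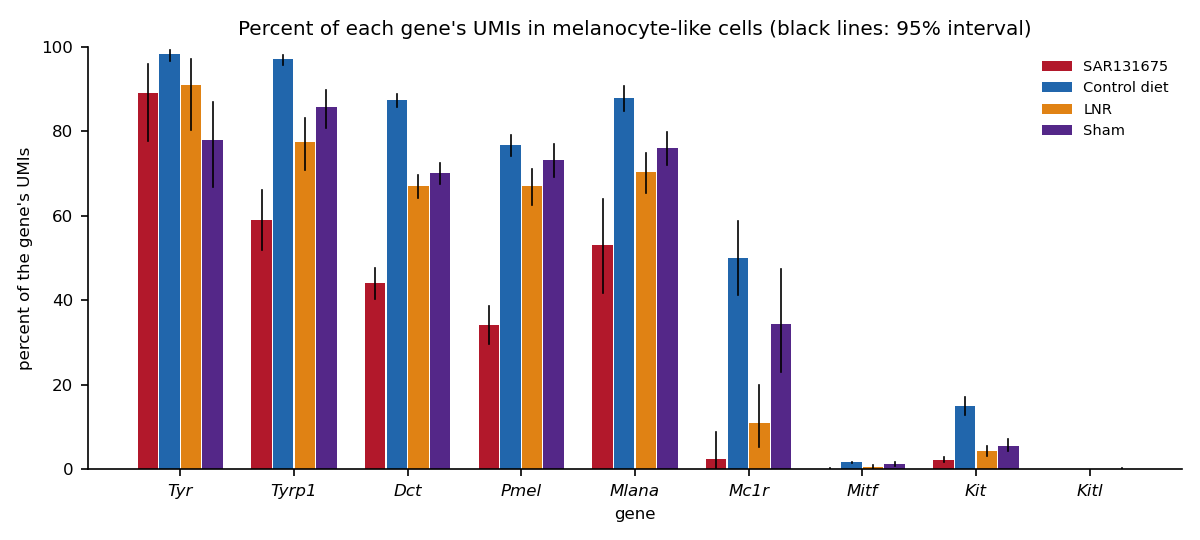
Percent of the UMIs of each gene that lay in melanocyte-like cells, by library, with 95% Clopper-Pearson intervals as black lines. Tyr exceeds 78% in every library, the bars of Tyrp1, Dct, Pmel and Mlana are shortest in SAR131675, and the bars of Mitf, Kit and Kitl reach at most 14.9%.

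Pigment genes were also found outside the pigment cells. Tyrp1 was at 39.8 CPM in Schwann-like cells of SAR131675, 6.29 in Control diet, 19.5 in LNR and 14.4 in Sham, and Tyr had 0 UMIs in that class in all 4 libraries. In SAR131675 the 68 Tyrp1 UMIs came from 24 Schwann-like cells, with at most 9 in 1 cell, and none of these cells had 3 or more of the 5 melanosome genes. Dct was at 16.5, 12.7, 13.8 and 11.9 CPM in inner root sheath-like cells of the hair follicle, whose range over the libraries stood apart from that of Schwann-like cells, the next lower class, at 0 to 4.81 CPM. The 236 Dct UMIs of this class in SAR131675 came from 173 cells, of which 133 held a single UMI. Mlana was at 0.461 to 2.85 CPM in fibroblast-like cells and Mc1r at 2.12 to 4.90 CPM in chondrocyte-like cells, from 2 to 4 UMIs per library. Pmel was at 0.598 to 1.28 CPM in basal keratinocyte-like cells, with at most 2 UMIs in a cell. The surgical pair had a further source of Dct in its sweat gland-like cluster, with 103 UMIs in LNR and 93 in Sham. Of these, 84 and 93 lay in 3 and 2 cells that carried at least 3 melanosome genes but too few of the markers to count as melanocyte-like.

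Mitf was not restricted to pigment cells. Among the 18 classes with at least 30 cells in every library it was highest in macrophage-like cells, relatives of the osteoclasts in which it is known to act, at 408 CPM in SAR131675, 409 in Control diet, 65.5 in LNR and 75.5 in Sham. Mast-like cells, a class of the surgical pair alone, were above them, at 151 CPM of Mitf in LNR and 194 in Sham. Fibroblast-like cells came next with a median of 132 CPM (49.0 to 224), then osteoblast-like cells with 102 (14.6 to 184), and the ranges of these neighbors overlapped because the diet pair was above the surgical pair in all of them. Over all kept cells Mitf was at 79.4 and 73.8 CPM in SAR131675 and Control diet and at 18.9 and 17.6 CPM in LNR and Sham, a gap between pairs that cannot be told apart from their different counting software. A UMI of Mitf was found in 78.8%, 79.3%, 20.1% and 20.1% of macrophage-like cells, and in 41.1%, 38.4%, 9.82% and 9.79% after each cell was thinned to 1500 UMIs. Cells expected to have little Mitf, the suprabasal keratinocyte-like cells, had a UMI in 8.44%, 5.82%, 0.678% and 0.777% (1.24%, 0.662%, 0% and 0.0723% after thinning). Within the basal keratinocyte class, 1 cluster per pair stood out for Mitf. Both clusters had all 6 basal markers, but of these only Krt15, in the surgical pair, was among their 10 leading genes, so the class name describes them poorly. Mitf was at 435 CPM in a diet cluster of 1658 cells led by Il31ra, Grem1, Cxcl14, Shisa2 and Lhx2, and at 69.5 CPM in a surgical cluster of 1616 cells led by Grem1, Cck, Lhx2, Shisa2 and Krt15. The diet cluster held 5127 Mitf UMIs, more than the macrophage cluster with 4066.

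Kit was highest in mast and sweat gland cells besides melanocytes. Mast-like cells, which were a cluster only in the surgical pair, were at 1149 CPM of Kit in LNR (95% Poisson interval 1061 to 1243) and 1457 CPM in Sham (1320 to 1605), and held 45.7% and 40.5% of all Kit UMIs of their libraries. A UMI of Kit was found in 85.3% and 86.0% of them. The log2 ratio of LNR against Sham in mast-like cells was -0.34 (-0.52 to -0.16) and so less than 2-fold. This depended on how mast cells were defined. In the 248 LNR and 262 Sham cells with at least 3 of 8 mast cell markers, a definition chosen after seeing the data, Kit was at 849 CPM (674 of 793981 UMIs) in LNR and 260 CPM (470 of 1808973 UMIs) in Sham, so that LNR was the higher. The mast-like cluster had 623 Kit UMIs of 542162 in LNR and 413 of 283404 in Sham. The marker rule thus added few Kit UMIs but many others, most of them in Sham. Its cells had a mean of 3201.5 UMIs in LNR and 6904.5 in Sham. The part of other cell types in these sums was not tested. That marker rule was met by 10 SAR131675 and 8 Control diet cells. The mast cell protease Mcpt4 had 92 and 90 UMIs in SAR131675 and Control diet against 11312 in LNR and 7045 in Sham, and Cpa3, Tpsb2, Tpsab1, Cma1 and Ms4a2 were also far lower in the diet pair. The other 2 markers were lower in the diet pair to a smaller degree. Over all kept cells, Hdc was at 4.555 and 3.533 CPM against 10.38 and 6.373, and Gata2 at 3.627 and 3.45 CPM against 6.65 and 4.614. The cause of this difference between the pairs was not tested.

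Sweat gland-like cells had Kit at 334 CPM in SAR131675, 303 in Control diet, 324 in LNR and 378 in Sham, a narrow range that stood apart from the next named class. A diet cluster without a name, of 148 cells, shared the leading genes Atp1b1, Fxyd2 and Krt18 with them and had Kit at 63.1 CPM. NK/T-like cells were at 134, 113, 91.1 and 53.1 CPM and inner root sheath-like cells at 60.2, 41.4, 35 and 22.3 CPM, and these ranges overlapped. Mural-like and blood endothelial-like cells followed with medians of 14.7 and 13.8 CPM. In the diet pair, inner root sheath-like cells held 44.0% and sweat gland-like cells 22.0% of the Kit UMIs of SAR131675, and 17.2% and 28.8% of those of Control diet. After thinning, a UMI of Kit was found in 27.4% to 35.1% of sweat gland-like cells, in 8.97% to 14.4% of NK/T-like cells and in at most 0.367% of macrophage-like cells, which should lack it.

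Kitl came from cells of the vessel wall, the stroma and the epidermis. Blood endothelial-like cells were at 647 CPM in SAR131675, 613 in Control diet, 280 in LNR and 271 in Sham. Mural-like cells, the pericytes and smooth muscle around them, were at 559, 607, 246 and 271 CPM. Their ranges overlapped with each other and stood apart from the next named class, sweat gland-like cells at 110 to 168 CPM. Fibroblast-like (82.7 to 173 CPM), Schwann-like (34.2 to 167 CPM) and osteoblast-like cells (49.9 to 119 CPM) followed with overlapping ranges. Lymphatic endothelial-like cells were far lower than blood endothelial-like cells, at 18, 22.4, 6.16 and 7.99 CPM. A UMI of Kitl was found in 86.5% and 84.6% of blood endothelial-like cells in SAR131675 and Control diet and in 60.3% and 58.4% in LNR and Sham, and in 53.9%, 54.4%, 33.1% and 33.0% after thinning. NK/T-like cells, which should lack it, had a UMI in 0.610% to 2.03%. By summed UMIs, fibroblast-like cells were the largest source in every library, with 23.1%, 28.6%, 38.8% and 35.5% of Kitl. Blood endothelial-like cells held 14.9% to 19.3% and basal keratinocyte-like cells 9.55% to 17.7%, the latter at 15.4 to 53.7 CPM. In the diet pair a cluster without a name, of 74 cells led by Ccer2, Cnn1, Nrxn3 and Acta2, reached 869 CPM. These cells were the ones that clustered with the pigment cells, which were set apart from it. Another diet cluster without a name, of 148 cells led by Wfdc2, Ppargc1a and Atp1b1, was at 635 CPM. It shared Atp1b1, Fxyd2 and Krt18 with the leading genes of the sweat gland-like cluster.

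**Figure D4:**
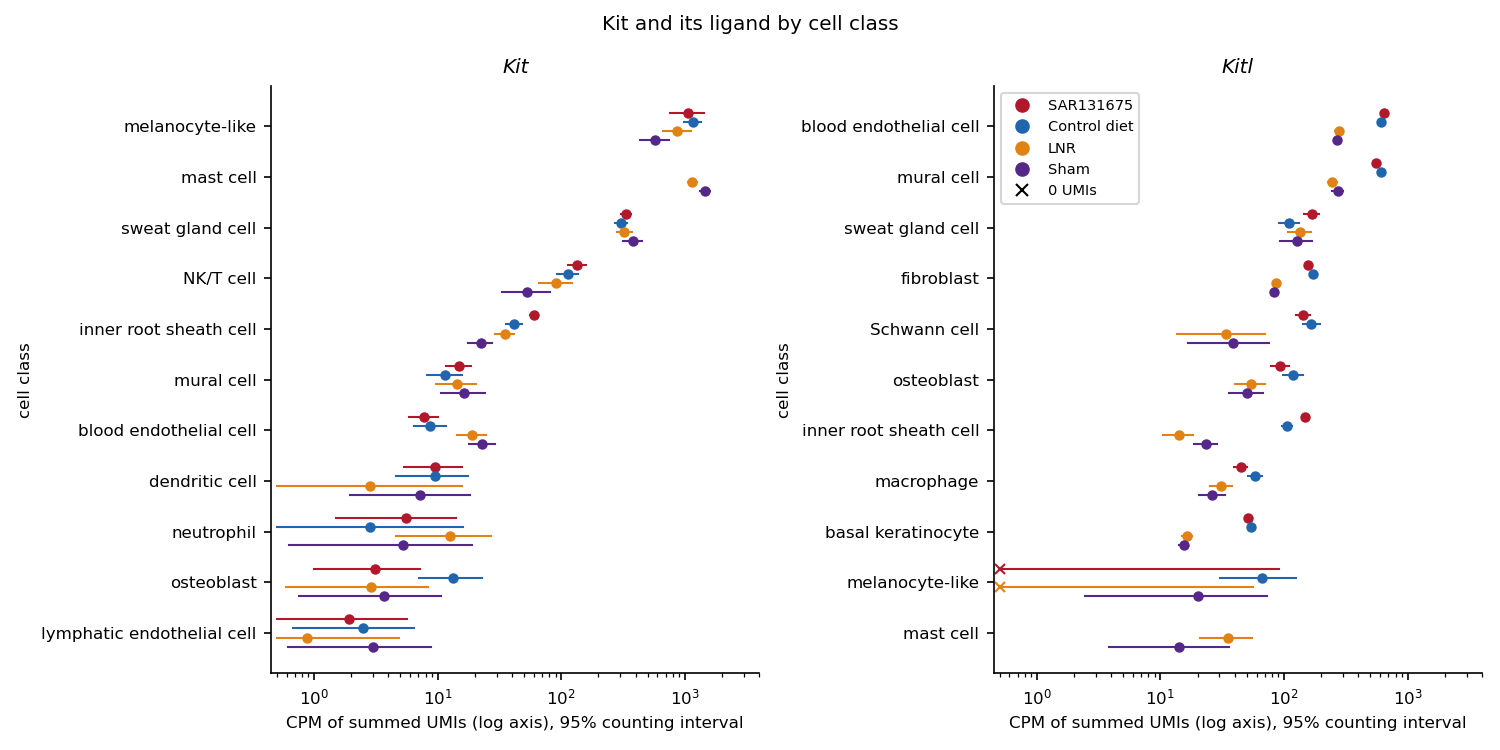
Kit (left) and Kitl (right) in CPM on a log axis for the 9 highest classes and for melanocyte-like and mast-like cells, with 1 point per library and 95% Poisson intervals. Kit is high in melanocyte-like, mast-like and sweat gland-like cells, and Kitl is highest in blood endothelial-like and mural-like cells. Crosses at the left edge mark 0 UMIs, and intervals that reach lower end at that edge.

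The other genes of the pathway were read from a list of 54 in 5 groups. Of genes with at least 10 UMIs in pigment cells, 17.4% (984 of 5662) were higher there than in all other cells in each of the 4 libraries. The same held for 8 of the 9 genes, all but Kitl. It held for 13 of 16 melanosome and transport genes, and for 8 of 10 after the genes that defined the cells were left out. The filter on UMIs in pigment cells favors genes that are high there, in the lists and among all genes. Of the melanosome and transport genes under it, Mreg, Hps1, Hps4 and Bloc1s1 were higher in 1, 3, 2 and 2 libraries. Gpnmb, a melanosome glycoprotein, was at 1815, 2424, 1315 and 633 CPM. Slc24a5 and Trpm1, both among the defining markers, were at 1132 to 2351 and 688 to 2183 CPM. Of the transcription factors 5 of 8 were higher in all libraries. Among them Pax3, which acts upstream of Mitf, was at 1226, 1523, 382 and 101 CPM against at most 0.904 CPM over the sum of all other cells. Pax3 was also at 28.8 to 187 CPM in Schwann-like cells. Zeb2 was at 171 to 1398 CPM, with macrophage-like cells at 809 to 2233 CPM, and Tfap2b at 196 to 342 CPM. Of the receptors 3 of 5 were higher, with the endothelin receptor Ednrb at 760, 1084, 673 and 271 CPM, Met at 30.2 to 952 CPM and Erbb3 at 70.4 to 139 CPM. Of the Kit signaling genes only 1 of 6 was higher in all 4, close to the share of all genes. Spred1, a Ras pathway inhibitor, was at 61.2 to 308 CPM, Pik3r1 at 70.4 to 176 CPM and Gab2 at 0 to 196 CPM.

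The ligands of these receptors were found in other cells. Edn1, a ligand of Ednrb, was at 193 CPM (166 to 208) in blood endothelial-like cells and 0 in pigment cells of all 4 libraries. Edn3, the ligand that melanoblasts need, was highest by class in mural-like cells (11.7 CPM, 3.37 to 14.8), but 1 fibroblast-like cluster in each pair, led by Dkk2 or Mfap4 and with Crabp1 and Coch, was above the mural-like clusters, at 28.8 CPM in the diet pair and 17.8 CPM in the surgical pair. Hgf, the ligand of Met, was highest in fibroblast-like cells (33.8 CPM, 22.3 to 52.9) and Nrg1, which acts through Erbb3, in basal keratinocyte-like cells (20.2 CPM, 4.75 to 43.3). Fgf2 led in chondrocyte-like cells (51.0 CPM) and Wnt4 in basal keratinocyte-like cells (262 CPM), with Wnt4 also at 0 to 151 CPM in pigment cells, whereas Pomc and Dkk1 stayed at medians under 2 CPM in their leading classes. Asip, the antagonist of Mc1r, which the files list by its older symbol a, was at 21.5 CPM (17.4 to 23.3) in fibroblast-like cells. It was far higher in 1 cluster without a name in each pair, at 1379 CPM in 631 cells led by Gpc5 and Rspo3 and at 1642 CPM in 316 cells led by Asip itself, Igfbp3, Crabp1 and Rspo3. These clusters were also the highest for Edn3, at 50.0 and 21.5 CPM.

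Likeness of pattern was measured by Pearson's r of log2(CPM + 1) over the 18 classes, whose points share their libraries, among 19633 genes. Nearest to Kitl were Ift122 (0.892), Cald1 (0.886), Zfp46, Dusp23 and Dennd2b. Nearest to Kit were Kcnip1 (0.822), Nyap2, Gm42699, Gm42701 and Cnot7, and nearest to Mitf were Htra2 (0.894), Pomk, Gm20274, Tctn1 and Tmed7. For Pmel, without the melanocyte-like class, those nearest included Prr36 (0.959), Rasef, Gm20110 and Smim22, a pattern that rests on low counts. Its highest class was sweat gland-like cells, at a median of 14.6 CPM. In the surgical pair that class held the cells with at least 3 melanosome genes described above, and their part in the pattern was not tested. With melanocyte-like cells added as a class, a choice made after the values were seen, the genes nearest to Pmel became Mcoln3 (0.976), Tyr, Ptgds, Mlana and Dct.

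SAR131675 against Control diet was compared to see how the pigment genes differ with the inhibitor. Over all kept cells, 6 of the 9 genes were past 2-fold and all 6 were lower in SAR131675, against 4.67% of 24116 genes past 2-fold in either direction and 2.21% lower. The log2 ratios were -3.31 for Tyr (-3.74 to -2.90), -2.90 for Mlana, -2.32 for Tyrp1, -1.79 for Dct, -1.70 for Pmel and -1.08 for Mc1r. Mitf (0.10), Kit (0.53) and Kitl (0.085) differed by less than 2-fold. In such sums, fewer pigment cells and less RNA per pigment cell cannot be told apart. The same 4 SAR131675 and 11 Control diet pigment cells held 34.1% to 98.4% of the UMIs of Tyr, Tyrp1, Dct, Pmel and Mlana. Their ratios are thus not separate observations, and the intervals do not cover which cells were captured. Within melanocyte-like cells the background was high. Of 4100 genes with at least 10 UMIs in the pair, 30.9% were past 2-fold and 19.1% lower. With at least 10 UMIs in each library, Mlana (-1.53, -2.01 to -1.08), Tyr (-1.35, -1.81 to -0.92) and Mitf (-1.31, -1.85 to -0.82) were past 2-fold, all lower. Tyrp1 (-0.94), Pmel (-0.77), Dct (-0.68) and Kit (-0.13, -0.66 to 0.36) differed by less than 2-fold. Mc1r (-3.30, -6.38 to -1.39) reached 10 UMIs only through Control diet (2 against 66 UMIs). The median of the 8 genes with at least 10 UMIs in the pair, Mc1r among them, was -1.13, and that of all genes -0.13. With Mc1r left out, the middle value was that of Tyrp1 (-0.94), less than 2-fold. The 4 SAR131675 cells decide these values, and fibroblast markers, at 5959 against 58.6 CPM, moved with them. In the 3 SAR131675 and 10 Control diet cells of the cluster that held most pigment cells, the median was -0.56, with Tyr at -0.99 (-1.51 to -0.51) and Mitf at -0.80 (-1.39 to -0.26), both then less than 2-fold, and Mlana at -1.24 (-1.80 to -0.73). With barcodes called doublets removed, 1 SAR131675 cell was left and the median was -0.11. The limits also matter, since 12 SAR131675 cells and 21 Control diet cells met the marker rule without the upper limits on genes and UMIs, with a median of -1.87.

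LNR against Sham was compared in the same way. None of the 9 genes was past 2-fold over all kept cells, against 3.68% of 20590 genes, and Kit (0.49, 0.38 to 0.61) and Kitl (0.19, 0.13 to 0.24) were slightly higher in LNR. Mast-like cells, 217 in LNR and 150 in Sham, held 45.7% and 40.5% of the Kit UMIs. The part of their number in the Kit ratio was not tested. In melanocyte-like cells none of the 8 genes was past 2-fold, against 24.8% of 2348 genes. Ratios there were 0.44 for Tyr (-0.13 to 1.02), 0.27 for Dct (0.13 to 0.40), 0.39 for Pmel (0.17 to 0.60), 0.60 for Kit (0.050 to 1.16) and -0.68 for Mc1r (-1.99 to 0.49). The median of the 8 was 0.22. Without the upper limits on genes and UMIs, which added 2 Sham cells and no LNR cell, the median was 1.2, and Tyr (1.43, 0.86 to 1.99) and Dct (1.19, 1.06 to 1.32), for example, were then higher in LNR by more than 2-fold. The share of all genes past 2-fold was not counted for these cells. In the 6 LNR and 6 Sham cells of the cluster that held most pigment cells, which held 1 Krt14 UMI between them, it was -0.58, with Tyrp1 at -1.07 and Dct at -0.59. The direction of the median thus turned when the cells outside that cluster, which include those with Krt14, were left out. The median was also negative in comparisons that kept those cells, namely with cells thinned, with fewer markers required and over all kept cells. Thinning sets each cell to 1500 UMIs, so large cells weigh less, and all kept cells are not pigment cells alone. The part of keratinocyte RNA in these medians was not tested.

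**Figure D5:**
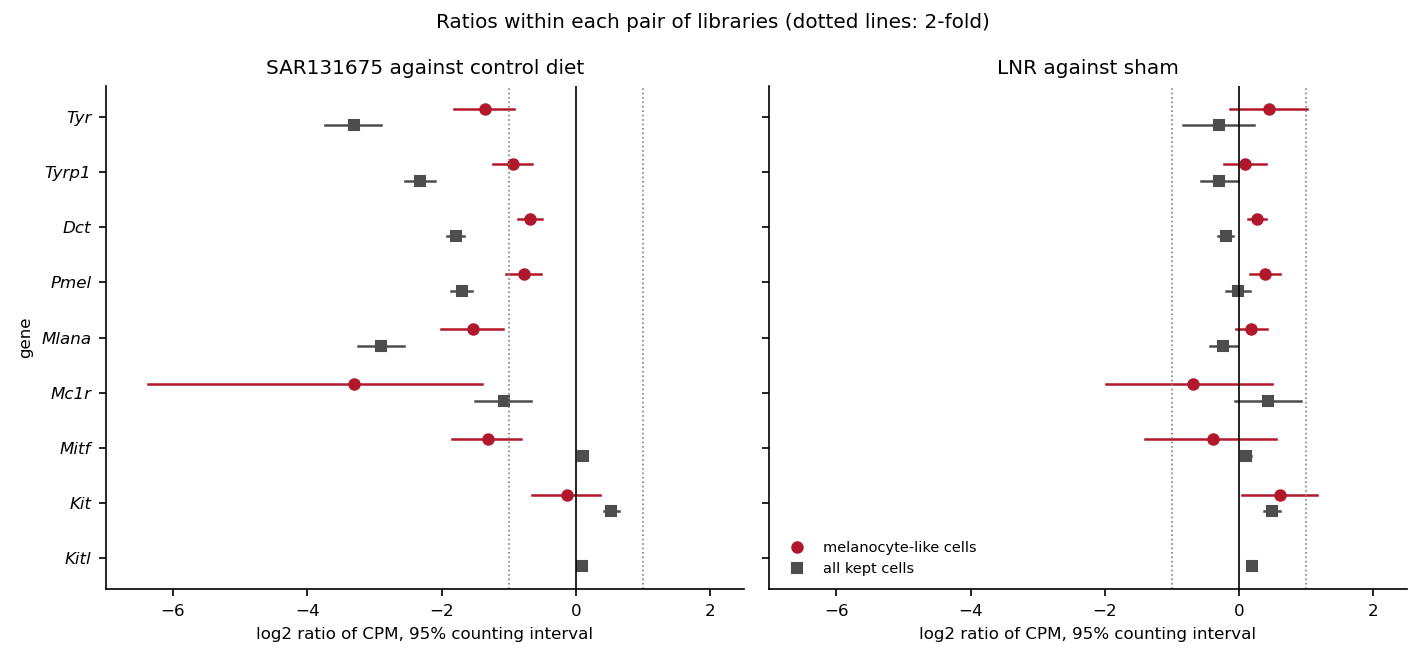
Log2 ratio of CPM within each pair, with 95% counting intervals, in melanocyte-like cells (red circles) and in all kept cells (gray squares), and dotted lines at 2-fold. In the diet pair 6 gray squares lie left of the line at 2-fold, and in the surgical pair all points lie between the lines.

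Kitl differed by less than 2-fold within both pairs in its main sources. In classes with at least 10% of its UMIs, the diet pair had log2 ratios of -0.068 (-0.13 to -0.0010) in basal keratinocyte-like, 0.077 (0.0125 to 0.14) in blood endothelial-like, -0.16 (-0.21 to -0.10) in fibroblast-like and -0.12 (-0.20 to -0.036) in mural-like cells. With each library clustered alone, the fibroblast-like value was -0.91. In those classes 5.77%, 6.56%, 5.48% and 6.1% of genes were past 2-fold. The surgical pair had 0.089 in basal keratinocyte-like, 0.046 in blood endothelial-like and 0.059 in fibroblast-like cells, each with an interval that included 0, where 3.90%, 5.06% and 4.28% of genes were past 2-fold. Smaller sources varied more. In inner root sheath-like cells Kitl was at 148 against 106 CPM in SAR131675 and Control diet (0.49, 0.34 to 0.63) and at 14.1 against 23.4 CPM in LNR and Sham (-0.74, -1.27 to -0.22). Kit in the same cells was higher in the first library of both pairs, at 60.2 against 41.4 CPM (0.54, 0.31 to 0.78) and at 35 against 22.3 CPM (0.65, 0.23 to 1.07).

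The pathway genes were compared within pairs in melanocyte-like cells too. Many of them reached 10 UMIs only through the library in which they were higher, so no count of them is given, and those past 2-fold with at least 10 UMIs in each library are named. The shares of all genes given beside them rest on a looser filter, at least 10 UMIs in the pair together. In the diet pair, where 19.1% of all genes were lower, this was Oca2 (38 against 294 UMIs, -1.21, -1.74 to -0.72), one of the markers that chose the cells. In the surgical pair 12.4% of all genes were higher and 12.4% lower. There Pax3 (25 against 10 UMIs, 1.93, 0.82 to 3.15), Ednrb (44 against 27 UMIs, 1.31, 0.59 to 2.06), Gpnmb (86 against 63 UMIs, 1.05, 0.57 to 1.55) and Myo5a (23 against 17 UMIs, 1.04, 0.073 to 2.04), a motor protein of melanosome transport, were higher in LNR. No such values are given here for the cluster that held most pigment cells. The largest Sham pigment cell held 27293 of the 99459 UMIs, with 198 UMIs of Krt14 and 0 of Ednrb. The largest LNR pigment cell held 10941 of 65390 UMIs, with 65 of Krt14 and 3 of Ednrb. Fibroblast and keratinocyte markers moved with these cells as given above, and their part in these values was not tested.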

How the data were processed

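Digits of 10 mice were pooled into each of 4 libraries, 1 per condition. The authors deposited filtered matrices of counts, whole UMIs per gene and barcode, with no normalization. The labels name Cell Ranger 6.1.2 and GRCm39, while the file headers give Cell Ranger 6.1.2 for LNR and Sham and 8.0.1 for SAR131675 and Control diet, and the setting for intronic reads is not given in the sources used here. The study's methods state the limits on genes, UMIs and mitochondrial reads for the surgical pair, and they were used for both pairs.

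The libraries of each pair were clustered together with scanpy 1.11.5 (counts scaled to 10000 per cell, 2000 variable genes without the 9 genes and the pathway list, 30 principal components, 20 neighbours, Leiden resolution 2) and named from marker lists. A cluster of melanocytes was to define the pigment cells, but none was named, so the alternative by 3 of 8 markers was used for the reported values. UMIs were summed per class and library. Intervals were exact Poisson for CPM, exact Clopper-Pearson for shares and exact conditional for ratios. A gene was called past 2-fold at an absolute log2 ratio of at least 1 with at least 10 UMIs in the pair. A count of 0 was read against a floor of 3 counts. Named genes were the 9, the 3 highest of each pathway group in pigment cells by median CPM, the ligands by their leading class, and the 5 genes most like Pmel, Mitf, Kit and Kitl. Others, such as pathway genes past 2-fold, were named after their values were seen. A few genes that this rule names are not reported here. Doublets were kept and called with Scrublet as an alternative, which marked 0.907% to 7.41% of cells. The members and lists were chosen with earlier results of these data known.

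The scripts were tested on simulated data in which 200 genes were changed 4-fold. These data held counting error only, without differences between cells, mixed droplets or the choice of which cells were captured. For SAR131675 against Control diet, 99.0% of them were past 2-fold over all kept cells (24116 genes) and 86.0% in pigment cells (4100 genes), with 2.12% and 22.4% of unchanged genes. For LNR against Sham these were 99.5% (20590 genes) and 94.0% (2348 genes), with 2.32% and 16.6% of unchanged genes.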

Additional observations from a re-analysis of the deposited data

How the results depend on the processing

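No paired analysis was possible because each condition has 1 library of pooled animals, so that the limbs of 1 animal in LNR and Sham cannot be matched. The median log2 ratio of the 8 genes, Mc1r among them, was read in pigment cells and, as an alternative, over all kept cells. For SAR131675 against Control diet it was negative under all 8 alternatives, from -2.25 to -0.11. It was highest, at -0.11, with called doublets removed, which left 1 SAR131675 cell. For LNR against Sham it ran from -0.58 to 1.2, the latter without upper limits on genes and UMIs, and was below 0 with cells thinned to 1500 UMIs (-0.31), with at least 2 markers (-0.13), in the cells of 1 cluster (-0.58) and over all kept cells (-0.11). The definitions by 2 or 4 markers or by 1 cluster were chosen after seeing the data. The log2 ratio of the share of pigment cells stayed negative in the diet pair (-3.68 to -0.37) and ran from -0.53 to 0.060 in the surgical pair. Mitf, lower in SAR131675 in pigment cells, was at 0.10 over all kept cells. For Kitl in the diet pair, clustering each library alone gave 0.053 in basal keratinocyte-like and -0.91 in fibroblast-like cells. Without upper limits Kitl was at 0.0086 in blood endothelial-like and -0.23 in fibroblast-like cells, and thinning gave -0.0090 and -0.0081. The other 36 of 42 Kitl values moved by less than their interval. Single genes were less stable, since 65 of 120 ratios moved by more and 1 reversed. Of these ratios, 16 were taken over all kept cells in place of pigment cells, where 12 moved and 1 reversed. Of 234 shares of UMIs held by pigment cells, 84 moved, including 22 of 36 in the cells of 1 cluster. The cause of these changes was not tested. Clustering choices cannot change cells defined by markers. Depth limits the pigment cell values, since 4 to 11 cells and 40777 to 136535 UMIs stand behind each library.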
